A study of Mus musculus with 12 samples.

Results

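The 9 genes described here handle retinoids, that is vitamin A and its derivatives, and the carotenoids from which the gut makes them: Rbp2, Dhrs3, Lrat, Bco1, Rdh7, Isx, Cyp26a1, Cyp26b1 and Stra6. They were chosen by name for their known roles, with earlier results of these data already known. They were looked up among the 23954 genes of the adult table and the 23333 genes of the neonate table, with 23319 identifiers common to the 2 tables. Of the 9 genes, 8 were found by symbol and 1 under an older symbol, since both tables list Bco1 as Bcmo1 with its Entrez Gene identifier 63857. All 9 were present at both ages.

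The libraries came from C57BL/6 mice, whose entire small intestine was pulverized for RNA, in 4 groups of 3 libraries. They were adults with an intestinal knockout (KO) of NCoR1, a corepressor that binds nuclear receptors, wild type (WT) adults, KO neonates and WT neonates. Adults were 10 weeks old and neonates 12 days old, and each library held the pooled RNA of 2 mice. The question the design poses is how loss of intestinal NCoR1 bears on transcription before and after maturation of the gut. The design text calls the strains F/FUN and DIECUN and does not spell them out, and no source used here gives the promoter that drives the deletion or any other allele that KO and WT mice share. The knockout is labelled as intestinal while the RNA came from the entire organ, with its muscle, vessels and connective tissue. In such bulk samples fewer cells of a type and less RNA per cell cannot be told apart, and p-values measure the spread between pools of mice.

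In the small intestine, enterocytes take up β-carotene and cleave it to retinal, reduce retinal to retinol, bind both to cellular retinol-binding protein 2, and esterify retinol for export in chylomicrons. A small share is oxidised to retinoic acid, which activates the nuclear receptors RAR and RXR and is cleared by CYP26 enzymes. The homeobox factor ISX, known as a target of retinoic acid in the gut, represses Bco1 and the carotenoid transporter gene Scarb1. Unliganded retinoic acid receptors are known to bind corepressors of the NCoR1 family.

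Libraries held 11912305 to 13057329 reads in genes in KO adults, 9775420 to 11769729 in WT adults, 5930748 to 8314138 in KO neonates and 8443540 to 9340917 in WT neonates. Levels are given in CPM, reads per 1e+06 reads in genes, and means with the SD over the n = 3 libraries of a group. Ncor1 was lower in KO than in WT libraries at both ages, with 163.7 ± 4.27 CPM in KO adults and 245.5 ± 6.39 CPM in WT adults (log2 difference -0.58, limma adjusted p = 0.000210). In neonates it averaged 230.9 ± 16.1 CPM in KO and 452.5 ± 6.26 CPM in WT libraries (log2 difference -0.97, limma adjusted p = 1.73e-10). Summed over 7 enterocyte genes such as Vil1 and Alpi, levels were 24990 to 28440 CPM in KO adults, 25150 to 28290 CPM in WT adults, 11460 to 11730 CPM in KO neonates and 9301 to 9984 CPM in WT neonates. Markers of the labelled tissue were thus abundant in every library. Log2 differences here are KO minus WT on the log2(CPM + 1) scale, which understates changes of low genes, and a gene was called at a limma adjusted p below 0.05 over all genes tested.

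Upstream of their transcription starts the members differ in whether they carry the hexamers that retinoic acid and related nuclear receptors are known to bind. The hexamer AGGTCA, the variant AGTTCA and the variant GGGTCA were searched on both strands in the 250 bases before each start, from RefSeq on GRCm38.p6, together with pairs of them in the same orientation 1 or 5 bases apart. The pairs are built from the same hexamers, so each pair match is also 2 hexamer matches. All 9 members matched a promoter, some with several starts. Sequences are shown 5′ to 3′ on the gene's strand for the 4 members called in adults and for Rbp2, the most abundant, with hexamer matches in capitals.
Bco1 (chr8:117095615-117095864, plus strand): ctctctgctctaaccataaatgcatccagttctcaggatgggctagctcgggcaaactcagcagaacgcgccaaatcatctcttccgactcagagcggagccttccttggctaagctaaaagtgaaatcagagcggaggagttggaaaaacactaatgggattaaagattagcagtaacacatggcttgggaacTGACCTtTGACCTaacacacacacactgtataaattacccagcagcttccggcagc
Isx (chr8:74872924-74873173, plus strand): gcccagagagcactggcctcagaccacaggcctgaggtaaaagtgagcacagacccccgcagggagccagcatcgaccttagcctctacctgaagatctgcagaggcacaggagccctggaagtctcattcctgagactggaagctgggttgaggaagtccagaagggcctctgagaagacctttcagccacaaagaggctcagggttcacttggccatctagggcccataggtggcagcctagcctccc
Rbp2 (chr9:98490287-98490536, plus strand): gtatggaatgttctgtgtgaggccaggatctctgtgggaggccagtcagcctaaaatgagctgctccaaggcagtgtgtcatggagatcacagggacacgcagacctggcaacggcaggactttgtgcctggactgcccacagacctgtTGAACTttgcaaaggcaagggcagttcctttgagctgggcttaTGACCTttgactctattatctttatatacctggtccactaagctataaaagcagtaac
Lrat (chr3:82903975-82904224, minus strand): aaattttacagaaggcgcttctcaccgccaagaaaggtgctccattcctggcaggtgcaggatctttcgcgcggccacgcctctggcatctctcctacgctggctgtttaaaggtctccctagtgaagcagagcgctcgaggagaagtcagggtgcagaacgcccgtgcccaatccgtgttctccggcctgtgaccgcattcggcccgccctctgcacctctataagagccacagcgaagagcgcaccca
Dhrs3 (chr4:144892577-144892826, plus strand, the most upstream of 3 starts): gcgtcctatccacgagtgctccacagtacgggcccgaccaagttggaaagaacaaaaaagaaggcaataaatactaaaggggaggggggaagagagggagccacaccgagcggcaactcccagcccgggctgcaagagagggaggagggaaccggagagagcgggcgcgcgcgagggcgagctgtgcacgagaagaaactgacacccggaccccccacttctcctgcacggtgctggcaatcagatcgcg
Bco1 held AGGTCA as a direct repeat 1 base apart, AGGTCANAGGTCA read from the minus strand, between 56 and 44 bases before the start. Such a pair 1 base apart, in any combination of the 3 hexamers, occurred in 0.143% of 32851 promoters. Rbp2 held 2 unpaired hexamers and each of the 2 Rdh7 promoters held 1. Cyp26a1 held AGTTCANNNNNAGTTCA on the minus strand, between 32 and 16 bases before its start, read on the gene's strand as TGAACTttgggTGAACT. A pair 5 bases apart occurred in 0.0639% of promoters, and at least 1 hexamer in 32.9%. No match was found in these windows of Lrat, Isx, Dhrs3, Cyp26b1 or Stra6. A match is a string of letters and not a measured binding site.

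In RPKM, which scales reads for library size and exon length, the 9 genes spanned a wide range, with Rbp2 and Isx at the top in all 4 groups. Reads in genes made up 45.1% of the library total behind RPKM in WT adults 3 and 50.6% or more elsewhere. Rbp2 led with a mean of 2785 RPKM in KO adults, 2208 in WT adults, 1935 in KO neonates and 1987 in WT neonates, and ranked between 8 and 10 among all genes in every adult library and at 8 or 9 in every neonate library. Isx, which encodes the homeobox repressor, was next in all 4 groups, at 47.8 ± 2.98 RPKM in KO adults, 31.9 ± 0.812 in WT adults, 53.8 ± 3.18 in KO neonates and 41.9 ± 3.30 in WT neonates. In WT adults the libraries of Isx and Rdh7 overlapped (Rdh7 28.7 ± 6.47 RPKM), and so did those of Rdh7 and Dhrs3 and of Cyp26b1 and Bco1 in KO adults. In WT adults Dhrs3 at 11.3 ± 1.24 RPKM and Lrat at 6.34 ± 1.02 RPKM followed, whereas in WT neonates Lrat at 28.1 ± 2.50 RPKM and Dhrs3 at 24.7 ± 1.15 RPKM stood above Rdh7 at 6.25 ± 1.96 RPKM. Bco1, Cyp26b1, Stra6 and Cyp26a1 averaged below 1 RPKM in all groups, and Stra6 and Cyp26a1 overlapped in all groups except KO adults, where each had few reads. The tables of the 2 ages were scaled separately, so adult and neonate levels are set side by side without a test.

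**Figure D1:**
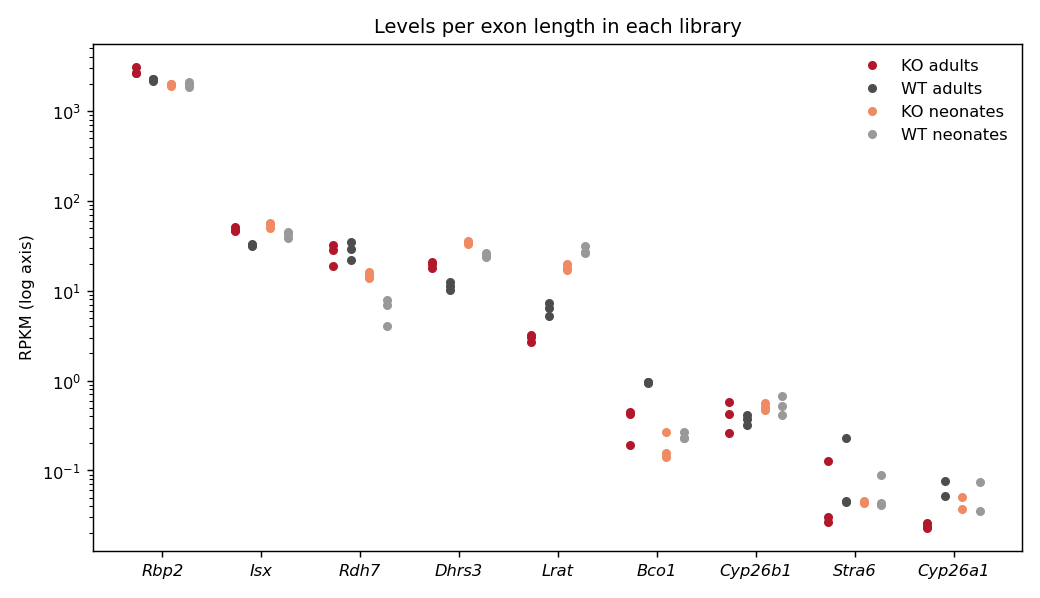
Each point is 1 library, with the gene on the x axis (ordered by the mean in WT adults) and RPKM on a logarithmic y axis; libraries listed at 0 are not drawn. Rbp2 sits above all other members in all 4 groups, and Lrat is below Dhrs3 in both adult groups and in KO neonates but above it in WT neonates.

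In adults 4 of the 7 tested members were called, 2 higher and 2 lower in KO. Dhrs3 and Isx rose, and Lrat and Bco1 fell. Over all 13463 genes tested in adults 19.4% were called, 5.50% higher and 13.9% lower; with TMM factors 1326 genes were higher and 857 lower, while without them 741 were higher and 1870 lower. In neonates 4 of the 6 tested members were called, with Dhrs3, Rdh7 and Isx higher and Lrat lower. Of 14215 genes tested in neonates 21.2% were called, 5.21% higher and 16.0% lower, and TMM factors gave 1278 higher and 1093 lower against 741 and 2268 without them. The median log2 difference of the tested members was 0.02 in adults and 0.23 in neonates, beside a median over all tested genes of -0.11 at both ages, which TMM factors moved to -0.00427 in adults and -0.02 in neonates. Bco1 passed the filter in adults only through its WT libraries and was not tested in neonates, and Cyp26a1 and Stra6 were not tested at either age because they stayed below 1 CPM in most libraries.

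**Figure D2:**
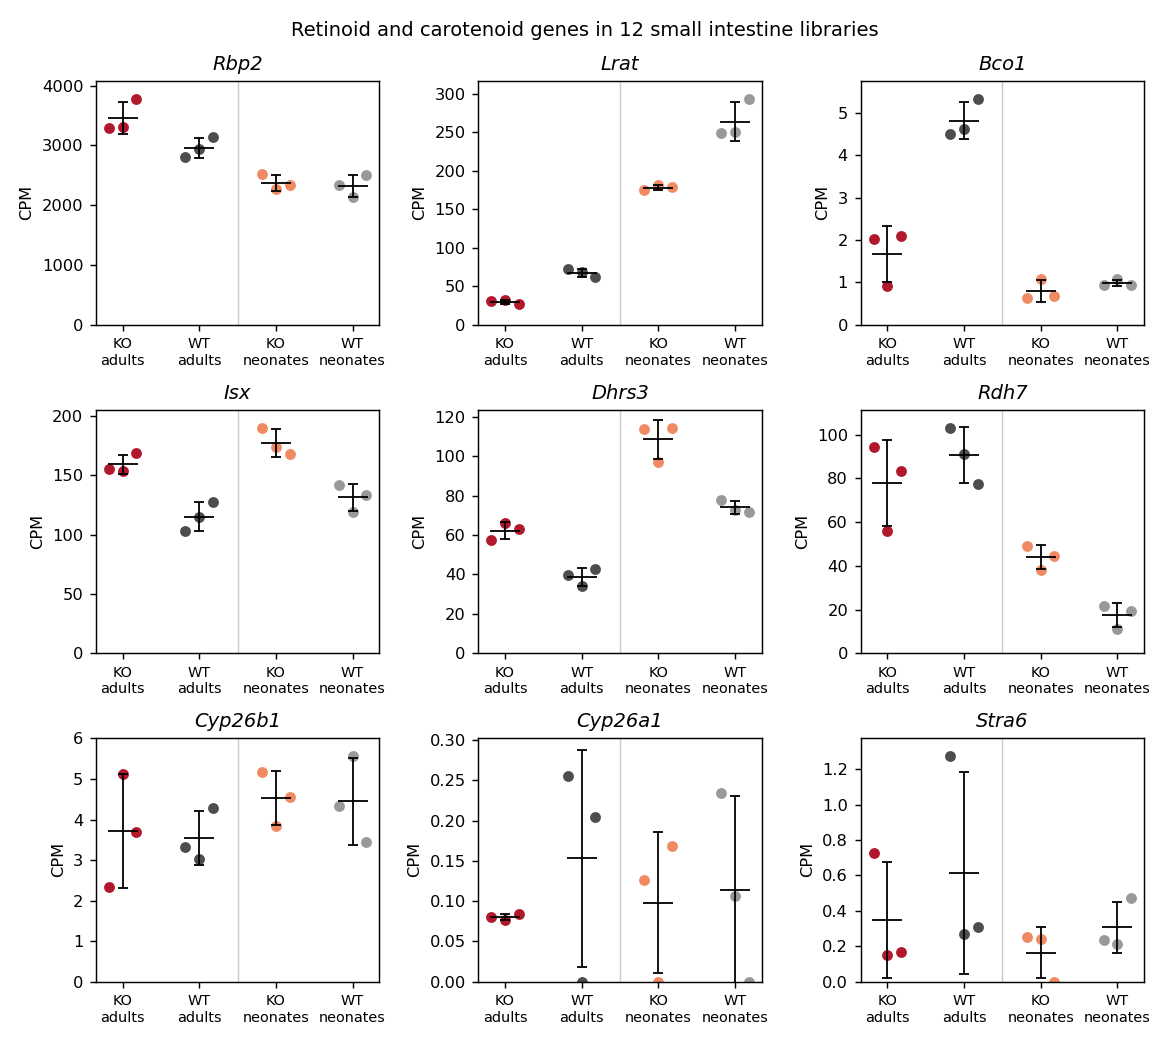
CPM (y axis, from 0, linear) of the 9 genes in each library, in KO adults, WT adults, KO neonates and WT neonates from left to right; bars are the mean and SD of 3 libraries. Isx and Dhrs3 are higher and Lrat lower in every KO library than in every WT library of the same age, while the Rdh7 groups separate in neonates and overlap in adults.

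Bco1, the enzyme that cleaves β-carotene to retinal, lies at chr8:119619765-119657620 on the plus strand of mm9 and was a low-abundance transcript at both ages. It had 25, 12 and 25 reads in KO adults (2.01, 0.919 and 2.10 CPM) and 53, 52 and 52 reads in WT adults (4.50, 4.61 and 5.32 CPM). All 3 KO adult libraries were below all 3 WT adult libraries, and the mean was 0.348 times that of WT adults. The log2 difference was -1.15 (SE 0.196, limma adjusted p = 0.00159). Because it met the filter on low values only through the WT libraries, where it is high, the fit without that filter bears on the call, and there it was also called (limma adjusted p = 0.00256). In neonates it had 5, 9 and 4 reads in KO and 8, 10 and 8 reads in WT libraries, which overlap, at a mean of 0.796 ± 0.249 CPM in KO and 0.985 ± 0.0742 CPM in WT neonates. At this depth a fall or a small rise of its neonatal level was not detectable, and no KO neonate library held more than 9 reads. Of the 36-base windows of its longest annotated transcript 2.69% also occur in other genes.

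Isx lies at chr8:77397073-77417405 on the plus strand of mm9, and it was higher in KO at both ages by a similar amount. It had 155.7, 153.5 and 168.7 CPM in KO adults and 103.2, 115.1 and 127.3 CPM in WT adults, without overlap. Neonatal levels were 190.4, 173.6 and 167.8 CPM in KO and 141.8, 119.3 and 133.2 CPM in WT libraries, again without overlap. The log2 difference was 0.47 in adults (SE 0.0888, limma adjusted p = 0.00316) and 0.43 in neonates (SE 0.0686, limma adjusted p = 0.000145), 1.38 and 1.35 times the WT mean. Between ages (adults minus neonates) the KO effect differed by 0.04 (95% confidence interval -0.20 to 0.28, limma adjusted p = 0.911).

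Of the 4 carotenoid genes outside the members, 0 were called in adults by limma, with 1, Cd36, at an unadjusted p under 0.05 and called by edgeR and DESeq2, and 1 was called in neonates. Scarb1, the scavenger receptor that takes up carotenoids and is a known target of ISX, had 15.5, 12.4 and 25.0 CPM in KO adults and 23.2, 21.4 and 14.0 CPM in WT adults (limma adjusted p = 0.749). In neonates it had 22.1, 22.5 and 19.9 CPM in KO and 25.1, 27.6 and 22.9 CPM in WT libraries, which did not overlap, with a log2 difference of -0.22 that was not called (limma adjusted p = 0.135). Bco2, the mitochondrial enzyme that cleaves carotenoids away from the centre of the chain, rose in neonates, to 27.1 ± 2.94 CPM in KO against 19.3 ± 3.17 CPM in WT libraries (log2 difference 0.47, limma adjusted p = 0.00606). In adults it averaged 86.8 ± 8.44 CPM in KO and 99.6 ± 10.1 CPM in WT libraries (limma adjusted p = 0.170), and its KO effect was lower in adults than in neonates by 0.67 (limma adjusted p = 0.0172; not called on deposited RPKM, adjusted p = 0.125).

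Rbp2, whose protein carries retinol and retinal inside the enterocyte, lies at chr9:98390956-98410190 on the plus strand of mm9. In adults it had 3292, 3309 and 3774 CPM in KO and 2808, 2934 and 3142 CPM in WT libraries. The adult groups did not overlap and KO stood at 1.17 times WT. The gene was nevertheless not called (log2 difference 0.22, SE 0.0937, limma adjusted p = 0.111). It was called in adults with TMM factors (log2 difference 0.35, limma adjusted p = 0.0410), with edgeR (adjusted p = 0.04998), with DESeq2 (adjusted p = 0.00812) and in 1 limma fit of all 4 groups (adjusted p = 0.0334). Neonates had 2528, 2271 and 2332 CPM in KO and 2345, 2129 and 2498 CPM in WT libraries, which overlap (log2 difference 0.03, 95% confidence interval -0.09 to 0.16, limma adjusted p = 0.713). Rbp4, the plasma carrier of retinol, averaged between 1.49 and 1.98 CPM in the 4 groups and was not called.

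Lrat, the enzyme that esterifies retinol, lies at chr3:82696504-82707896 on the minus strand of mm9 and fell at both ages. It had 30.4, 32.2 and 26.6 CPM in KO adults and 72.4, 68.5 and 62.3 CPM in WT adults. The highest KO adult library thus lay below the lowest WT adult library, and the KO mean was 0.439 times the WT mean (log2 difference -1.16, SE 0.0952, limma adjusted p = 7.99e-06). In neonates it had 174.4, 181.1 and 179.1 CPM in KO and 248.7, 249.9 and 293.1 CPM in WT libraries. These groups did not overlap either, with a KO mean 0.675 times the WT mean (log2 difference -0.56, SE 0.0631, limma adjusted p = 2.22e-06). The KO effect was more negative in adults, with a difference between ages of -0.60 (SE 0.117, limma adjusted p = 0.00324). On deposited RPKM, taken as log2(RPKM + 1), the difference was -0.27 and not called (limma adjusted p = 0.296). That scale understates changes at low levels, and Lrat averaged 2.98 RPKM in KO and 6.34 in WT adults. Neonatal means were 18.1 RPKM in KO and 28.1 in WT. In both genotypes adult levels were below neonatal ones, at 29.7 ± 2.87 CPM in KO adults and 178.2 ± 3.46 CPM in KO neonates, and at 67.7 ± 5.09 CPM in WT adults and 263.9 ± 25.3 CPM in WT neonates (from separately scaled tables).

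Of the 6 other genes of ester formation and hydrolysis, all tested in adults, 1 rose and 1 fell in adults, and 2 of the 4 tested in neonates rose. Pnpla2, a triglyceride lipase, rose in adults to 192.2 ± 12.6 CPM in KO against 119.3 ± 8.46 CPM in WT libraries (log2 difference 0.68, limma adjusted p = 0.000173). In neonates it averaged 83.1 ± 4.08 CPM in KO and 74.7 ± 3.23 CPM in WT libraries and was not called (limma adjusted p = 0.115), and its KO effect was higher in adults by 0.53 (limma adjusted p = 0.00334). Plb1, the brush-border phospholipase B that hydrolyses retinyl esters, fell in adults to 25.5 ± 12.5 CPM in KO against 159.2 ± 57.2 CPM in WT libraries (limma adjusted p = 0.0267). That call was lost in 5 of the 6 fits that left out 1 library and with the replicate block, with adjusted p up to 0.0873. The Plb1 age difference, adults minus neonates, was -2.68 (limma adjusted p = 0.0111, but 0.281 with edgeR). Neonatal means of Plb1 were only 0.708 CPM in KO and 0.643 CPM in WT libraries. Dgat1, an acyltransferase that can also esterify retinol, rose slightly in neonates, to 287.3 ± 3.89 CPM in KO against 256.4 ± 4.995 CPM in WT libraries (limma adjusted p = 0.0273). The Dgat1 call was lost in 4 of 6 fits that left out 1 library. Lipe, hormone-sensitive lipase, rose in neonates to 76.5 ± 2.02 CPM in KO against 62.4 ± 0.987 CPM in WT libraries (limma adjusted p = 0.00325).

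Dhrs3, which reduces retinal to retinol and is itself induced by retinoic acid in many tissues, lies at chr4:144483040-144517548 on the plus strand of mm9 and rose at both ages. In adults it had 57.4, 66.3 and 63.0 CPM in KO and 39.9, 33.9 and 42.8 CPM in WT libraries. Neonatal values were 113.9, 96.9 and 114.5 CPM in KO and 77.9, 72.7 and 71.4 CPM in WT libraries. All KO libraries were above all WT libraries of their age, with KO means 1.60 times WT in adults (log2 difference 0.67, SE 0.0986, limma adjusted p = 0.000609) and 1.47 times WT in neonates (log2 difference 0.54, SE 0.0722, limma adjusted p = 1.73e-05). The KO effect in adults exceeded that in neonates by 0.13 (95% confidence interval -0.14 to 0.39, limma adjusted p = 0.650).

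Rdh7, a microsomal dehydrogenase known to act on retinols and steroids, lies at chr10:127321083-127325789 on the minus strand of mm9 and rose in neonates. It had 49.3, 38.3 and 44.5 CPM in KO neonates and 21.8, 11.1 and 19.4 CPM in WT neonates, without overlap, at 2.52 times the WT mean (log2 difference 1.33, SE 0.274, limma adjusted p = 0.0285). The call was lost without KO neonates 1 (adjusted p = 0.0890), KO neonates 2 (0.0598), KO neonates 3 (0.0969) or WT neonates 3 (0.0614). In adults it had 94.2, 56.1 and 83.6 CPM in KO and 103.3, 91.1 and 77.5 CPM in WT libraries, which overlap (log2 difference -0.24, 95% confidence interval -0.78 to 0.30, limma adjusted p = 0.492). The age difference of the KO effect, adults minus neonates, was -1.57 (SE 0.382) and missed the threshold (limma adjusted p = 0.0528), while edgeR (adjusted p = 0.00817) and DESeq2 (adjusted p = 0.00222) called it. Rdh7 shares 15.7% of its 36-base transcript windows with related genes, among them Rdh1, Rdh9 and Rdh19, so its values are uncertain to the extent that reads were split between copies.

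**Figure D3:**
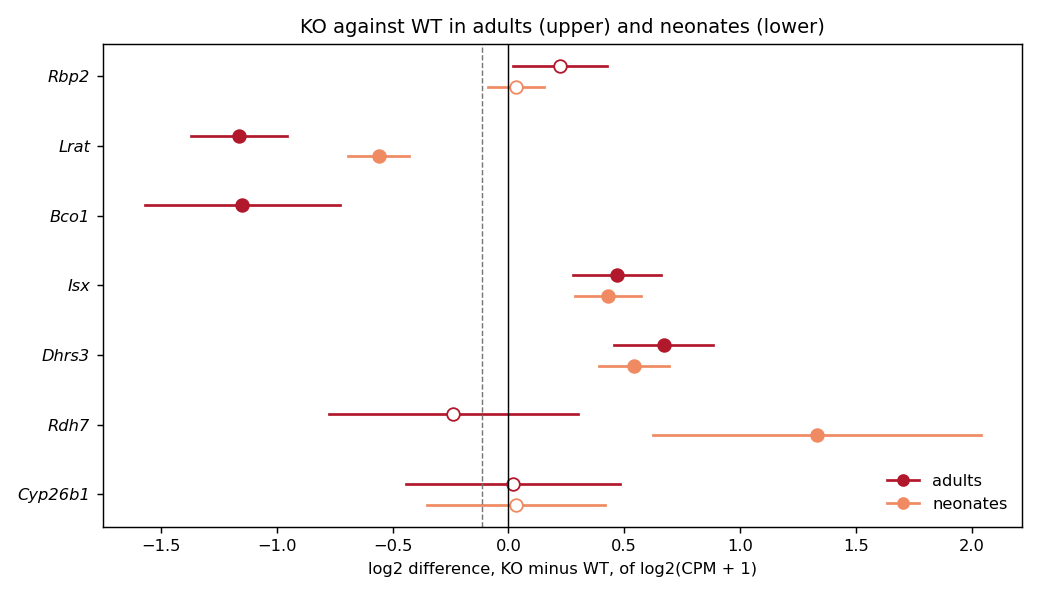
Log2 difference KO minus WT (x axis) with its 95% confidence interval for the 7 members tested at either age (y axis), adults above neonates; filled points were called and open points were not. The solid line marks 0 and the dashed line the adult median over all tested genes, -0.11. Intervals of Isx and Dhrs3 cover much the same range at both ages, and those of Lrat lie to the left of 0 at both.

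Around these 2 members most called genes on the list of retinol and retinal oxidising and reducing enzymes were higher in KO. Of its 19 genes outside the members, 16 were tested in adults, where 4 rose and 1 fell (median 0.17), and 15 in neonates, where 6 rose and 1 fell (median 0.21), beside the all-gene median of -0.11. Among all tested genes 5.50% were called higher and 13.9% lower in adults, and 5.21% higher and 16.0% lower in neonates. Dhrs9, a retinol dehydrogenase of epithelia, rose at both ages, to 7.45 ± 1.13 CPM in KO against 2.96 ± 1.05 CPM in WT adults (log2 difference 1.12, limma adjusted p = 0.00257) and to 25.4 ± 2.42 CPM in KO against 11.5 ± 1.83 CPM in WT neonates (log2 difference 1.09, limma adjusted p = 1.71e-06). Rdh9, a close relative of Rdh7, also rose at both ages, to 145.2 ± 13.1 CPM in KO against 89.9 ± 12.8 CPM in WT adults and to 7.50 ± 2.43 CPM in KO against 2.07 ± 0.773 CPM in WT neonates (limma adjusted p = 0.00113 and 8.98e-05). In adults Rdh16 rose to 17.5 ± 1.65 CPM in KO against 9.44 ± 2.29 CPM in WT, and Dhrs4, a retinal reductase, to 90.8 ± 11.1 CPM in KO against 63.0 ± 5.26 CPM in WT libraries (limma adjusted p = 0.00219 and 0.00367). Rdh9 and Rdh16 share sequence with Rdh7, so their values carry the same uncertainty. The 1 lower adult gene was Rdh14, whose call was lost in 4 of 6 fits without 1 library and with TMM factors. The 1 lower neonatal gene was Aldh1a3, another retinal dehydrogenase, at 58.9 ± 3.38 CPM in KO and 72.8 ± 3.43 CPM in WT neonates (limma adjusted p = 0.00446; 0.0688 with edgeR and 0.220 with DESeq2).

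Among the called neonatal genes of this list were Aldh1a1 and Adh1, which oxidise retinal and retinol, and Aldh1a7. Aldh1a1, which makes retinoic acid from retinal, rose to 186.2 ± 12.7 CPM in KO against 66.3 ± 9.71 CPM in WT neonates (log2 difference 1.48, limma adjusted p = 5.94e-08). Adh1, a cytosolic alcohol dehydrogenase that oxidises retinol, rose to 214.8 ± 28.8 CPM in KO against 85.0 ± 7.95 CPM in WT neonates (log2 difference 1.32, limma adjusted p = 1.46e-06). Aldh1a7, a relative of Aldh1a1, rose to 35.0 ± 2.998 CPM in KO against 22.8 ± 0.370 CPM in WT neonates (limma adjusted p = 8.05e-05). Sequence windows shared between these relatives were not counted. In adults Aldh1a1 averaged 832.8 ± 213.4 CPM in KO and 501.2 ± 124.2 CPM in WT libraries, and Adh1 840.8 ± 178.8 CPM in KO and 715.1 ± 221.3 CPM in WT libraries, with groups that overlap and no call (limma adjusted p = 0.148 and 0.577). The difference between ages was not called for Aldh1a1 (-0.76, limma adjusted p = 0.252) or Adh1 (-1.07, limma adjusted p = 0.112). Aldh1a2, the retinal dehydrogenase of stromal and immune cells, was not called at either age, at 6.75 ± 1.07 CPM in KO adults, 8.01 ± 0.559 in WT adults, 29.1 ± 1.91 in KO neonates and 33.6 ± 5.23 in WT neonates.

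The retinoic acid hydroxylases among the members were scarce. Cyp26b1 (chr6:84521408-84543804, minus strand, mm9) had 2.34, 5.13 and 3.69 CPM in KO adults and 3.31, 3.02 and 4.30 CPM in WT adults, and 5.18, 3.85 and 4.55 CPM in KO neonates and 4.34, 5.57 and 3.44 CPM in WT neonates. The groups overlapped at both ages, with log2 differences of 0.02 in adults (95% confidence interval -0.44 to 0.48, limma adjusted p = 0.957) and 0.03 in neonates (95% confidence interval -0.35 to 0.42, limma adjusted p = 0.919). Cyp26a1 (chr19:37772298-37776026, plus strand, mm9), whose promoter carries the hexamer pair 5 bases apart, had 1, 1 and 1 reads in KO adults and 3, 0 and 2 reads in WT adults, and 1, 0 and 1 reads in KO neonates and 2, 1 and 0 reads in WT neonates. A library with 0 reads allows up to 0.230 to 0.506 CPM at these depths, taking 3 reads as the limit and counting error alone. A fall of Cyp26a1 in KO was thus not detectable at this depth, and no KO library held more than 1 read.

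Stra6, the membrane receptor that takes up retinol from plasma retinol-binding protein, lies at chr9:57977156-58001804 on the plus strand of mm9 and was near the limit of detection. It had 9, 2 and 2 reads in KO adults and 15, 3 and 3 reads in WT adults, so replicate 1 was the highest library of either genotype. In neonates it had 2, 2 and 0 reads in KO and 2, 2 and 4 reads in WT libraries. Stra6l, a second such receptor known in intestine and liver, was far more abundant in neonates and fell slightly, to 294.8 ± 5.34 CPM in KO against 344.6 ± 6.04 CPM in WT neonates (limma adjusted p = 0.00305). With TMM factors that call was lost (adjusted p = 0.124). Ttr, the plasma carrier of the retinol-binding protein complex, rose in neonates to 302.6 ± 14.0 CPM in KO against 142.5 ± 18.2 CPM in WT libraries (limma adjusted p = 1.89e-07). It fell in adults, to 1.92 ± 0.609 CPM in KO against 3.88 ± 0.431 CPM in WT libraries (limma adjusted p = 0.0122; 0.0557 without KO adults 2). Its effects differed between the ages by -1.85 (limma adjusted p = 6.16e-06). Summed over 4 liver genes, levels were 2.17 to 3.54 CPM in KO neonates and 8.14 to 20.2 CPM in WT neonates. In adults they were 1.68 to 2.82 CPM in KO and 2.84 to 3.48 CPM in WT libraries. The liver sum was thus lower in KO at both ages, but in adults the KO and WT ranges nearly met at these low levels. Of the 4 liver genes 1 was tested in adults and 0 were called. In neonates 3 were tested and 1, Fgb, was called, lower in KO. Fgb met the filter on low values only through its WT libraries, with 16 reads in KO and 89 in WT neonates. Ttr was lower in KO adults and higher in KO neonates, and the part of liver RNA in the Ttr result was not tested.

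Among 6 retinoid receptor genes 5 were tested at each age, with 0 called in adults by limma and 1 in neonates. In adults 1 gene, Rara, had an unadjusted p under 0.05, and it was called with TMM factors, edgeR and DESeq2. Rxra, the shared partner of many nuclear receptors, fell to 77.8 ± 3.26 CPM in KO against 102.7 ± 0.0805 CPM in WT neonates (log2 difference -0.40, limma adjusted p = 0.000116) and had 154.3 ± 15.9 CPM in KO and 151.2 ± 5.03 CPM in WT adults (limma adjusted p = 0.876). Its KO effect was higher in adults by 0.42 (limma adjusted p = 0.0186; 0.0617 without KO adults 3). Rara had 43.1 ± 4.07 CPM in KO and 35.9 ± 1.05 CPM in WT adults and 34.8 ± 1.31 CPM in KO and 39.0 ± 2.20 CPM in WT neonates (limma adjusted p = 0.0657 in adults and 0.1796 in neonates). The KO effect on Rara was higher in adults by 0.41 (limma adjusted p = 0.0433), a call lost under 15 of 21 alternatives. Rarb averaged between 1.15 and 2.89 CPM and Rarg between 3.88 and 11.2 CPM in the 4 groups, and neither was called.

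Genes known to respond to retinoic acid went both ways. Of the 15 on the list, 6 of which are members, 11 were tested in adults with 3 higher and 2 lower (median 0.02) and 12 in neonates with 2 higher and 3 lower (median -0.09). The share called among all tested genes was 19.4% in adults and 21.2% in neonates. Outside the members, Tgm2, tissue transglutaminase, rose in adults to 78.7 ± 7.15 CPM in KO against 63.2 ± 1.43 CPM in WT libraries (limma adjusted p = 0.0232), a call lost in 3 of 6 fits without 1 library. Rarres2, which encodes the secreted factor chemerin, fell in adults to 25.7 ± 2.62 CPM in KO against 37.3 ± 3.07 CPM in WT libraries (limma adjusted p = 0.00396). Rarres1 fell in neonates to 7.60 ± 1.36 CPM in KO against 14.0 ± 2.43 CPM in WT libraries (limma adjusted p = 0.000545), and Hic1, a transcriptional repressor, to 13.2 ± 1.87 CPM in KO against 16.9 ± 0.329 CPM in WT libraries (limma adjusted p = 0.0449). The Hic1 call was lost under 11 of 16 alternatives.

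Over the 49 listed pathway genes outside the members, 41 were tested in adults, with 6 higher, 4 lower and a median of -0.07, and 38 in neonates, with 10 higher, 5 lower and a median of 0.04. Among all tested genes 19.4% were called in adults and 21.2% in neonates. With TMM factors the counts were 8 higher and 3 lower in adults and 14 higher and 3 lower in neonates. All tested genes then gave 1326 higher and 857 lower in adults, and 1278 higher and 1093 lower in neonates.

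**Figure D4:**
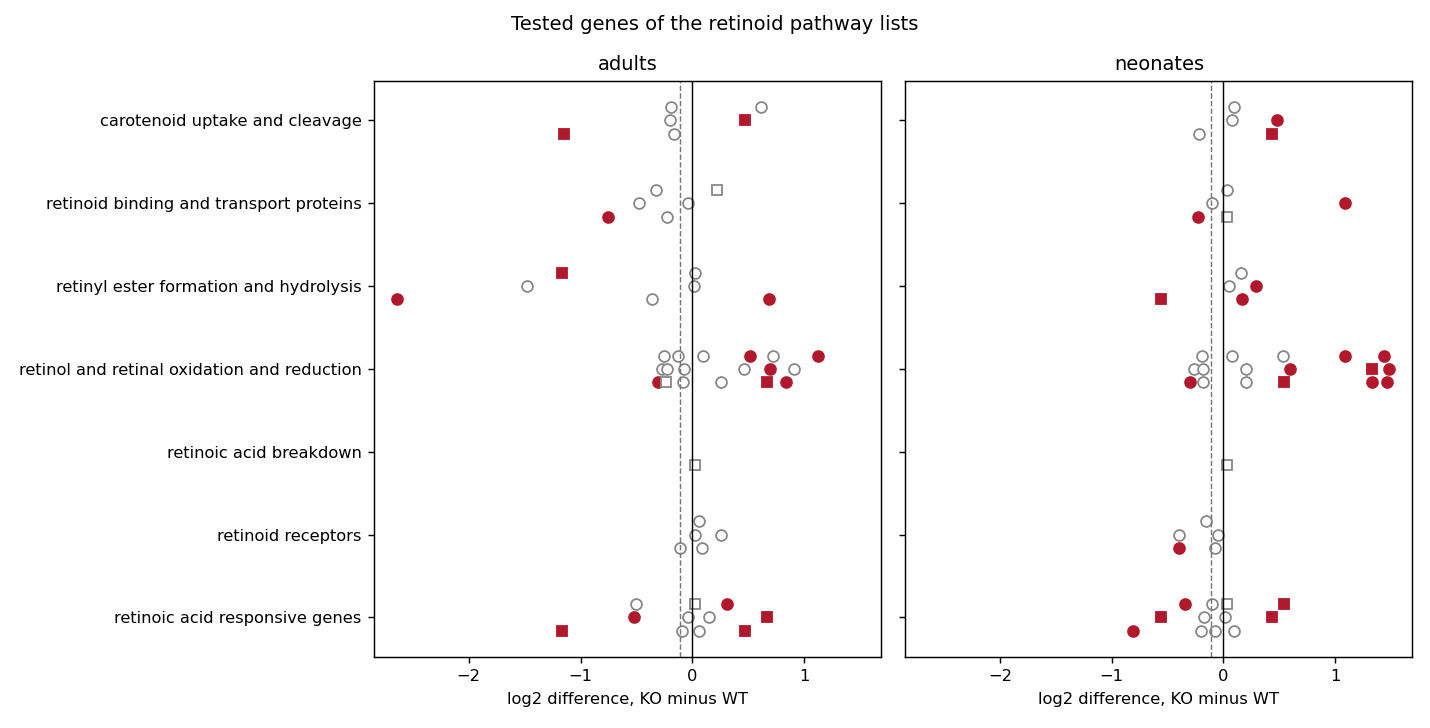
Log2 difference KO minus WT (x axis) of every tested gene on the 7 retinoid lists (y axis), adults on the left and neonates on the right; squares are members, circles other genes, filled red symbols were called. Solid lines mark 0 and dashed lines the median over all tested genes, -0.11 at both ages; points are spread vertically within a list for legibility alone. In the oxidation and reduction list the red symbols lie to the right except for 1 gene at each age.

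The KO effects on the 9 genes were compared between ages in 1 fit of all 12 libraries, within which each effect is taken inside its own table. Of the 7 members tested 2 passed the threshold, Lrat and Bco1, both with the lower value in adults, while 5.46% of 14588 genes were called, 3.02% higher and 2.44% lower in adults. The Lrat values are given above. For Bco1 the age difference, adults minus neonates, was -0.996 (SE 0.271, limma adjusted p = 0.0345). It rests on neonatal libraries of 10 or fewer reads, with means below 1 CPM in both KO and WT neonates. Without the filter on low values it was not called (limma adjusted p = 0.0561), nor with a pseudocount of 0.25 CPM (adjusted p = 0.0967), with edgeR (0.201), without KO adults 2 (0.109) and without 7 other libraries in turn. Rbp2 (0.19, limma adjusted p = 0.344) and Cyp26b1 (-0.01, limma adjusted p = 0.990) were not called.

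Some marker genes of cell types and gut regions differed between KO and WT libraries, and others did not. Their counts stand beside 19.4% of all tested genes called in adults and 21.2% in neonates. In neonates 6 of 7 enterocyte genes rose and the sums given above did not overlap, whereas in adults the sums overlapped and 0 of 7 were called by limma, edgeR or DESeq2, with 1, Vil1, at an unadjusted p under 0.05. Over 5 genes of the proximal small intestine the sum was 4566 to 5702 CPM in KO adults and 3050 to 3182 CPM in WT adults, and 4728 to 5305 CPM in KO neonates and 3094 to 3465 CPM in WT neonates. Most of that sum was Fabp1, the liver-type fatty acid binding protein, at 4661 ± 515.1 CPM in KO and 2609 ± 37.6 CPM in WT adults and 3317 ± 121.5 CPM in KO and 1841 ± 175.2 CPM in WT neonates. Fabp1 was the 1 gene of the list called in adults, where the list median was -0.03, while in neonates 3 genes were higher and 1, Gata4, was lower, a call that TMM factors removed. Over 5 ileal genes the sum was 1363 to 1904 CPM in KO adults and 1653 to 1704 CPM in WT adults, and 465.1 to 492.2 CPM in KO neonates and 389.8 to 410.4 CPM in WT neonates, with 1 of 5 genes higher in adults and 3 of 5 in neonates. Of these 3, Slc10a2 met the filter on low values only through its KO libraries, with 34 reads in KO and 13 in WT neonates. Its call was lost in 4 of 6 fits that left out 1 library. Fibroblast genes summed to 349.2 to 364.5 CPM in KO adults and 443.9 to 590.0 CPM in WT adults, with 3 of 6 lower, and to 1777 to 1975 CPM in KO neonates and 1971 to 2579 CPM in WT neonates, with 3 of 6 lower and 0 with TMM factors. Myeloid genes summed to 170.0 to 209.8 CPM in KO neonates and 263.9 to 308.9 CPM in WT neonates, with 4 of 5 lower and 1 with TMM factors. Pancreatic acinar genes summed to 154.0 to 1012 CPM in KO adults and 977.8 to 2874 CPM in WT adults, with 0 of the 4 tested at an unadjusted limma p under 0.05 and 0 called by edgeR or DESeq2. Smooth muscle and vessel sums overlapped between KO and WT at both ages, with 1 of 5 smooth muscle genes (Tagln) and 1 of 6 vessel genes (Lyve1) lower in adults, calls that TMM factors removed. The part of these marker differences in the changes of the 9 genes was not tested.

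For the 3 members with the highest RPKM in WT adults the genes with the most similar pattern were found among 8226 genes, by Pearson r over the 12 libraries after centring each age on its own mean. The 12 libraries share the KO and WT contrast, so r also reflects it and is given without a p-value. For Rdh7 the closest genes were Fabp6, the ileal bile acid-binding protein (r = 0.972), Cyp2d26 (0.959) and Clca6 (0.944). Fabp6 had 19.2, 14.8 and 13.5 CPM in KO neonates and 7.27, 1.61 and 4.62 CPM in WT neonates, and WT neonates 2 was the lowest library for both genes. In adults it had 893.2, 500.7 and 978.6 CPM in KO and 1045, 959.4 and 981.5 CPM in WT libraries, and KO adults 2 was the lowest library for both genes. Fabp6 itself was not called by limma at either age (limma adjusted p = 0.386 in adults and 0.0730 in neonates). With edgeR 4 of the 5 ileal genes, Fabp6 among them, were called higher in KO neonates. For Isx, Cldn3, a tight junction protein (0.970), and Dbi, an acyl-CoA-binding protein (0.963), were among the closest 3, and both were called higher in KO at both ages. For Rbp2 they were Pddc1 (0.913), Timm13 (0.887) and Mrpl44 (0.880), of which Mrpl44 was called, in adults.

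**Figure D5:**
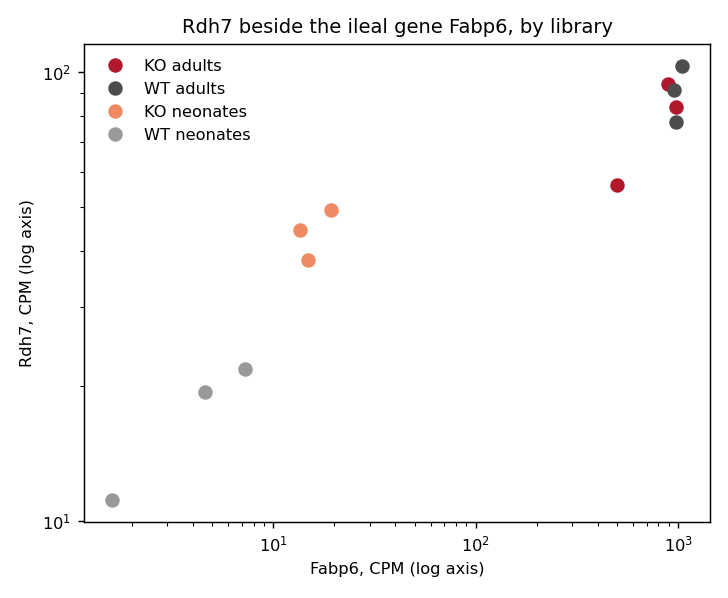
CPM of Rdh7 (y axis) against CPM of the ileal gene Fabp6 (x axis), both on logarithmic axes, with 1 point per library. KO neonates lie above and to the right of WT neonates, and the KO and WT adults overlap, with KO adults 2 lowest for both genes.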

How the data were processed

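RNA-seq was made with stranded mRNA libraries from 12 samples, 3 per group, and read for 36 cycles, per the labels' protocols. Reads were aligned with Bowtie 0.12.2 to mm9, per the submitters' processing notes, and exon reads on the opposite strand were counted and condensed to 1 entry per gene with HOMER's analyzeRepeats, per the file headers. No source used here gives HOMER's version or how reads matching several places were handled.

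The read columns the authors deposited hold a signal, counts divided by 1 factor per library, and whole reads were recovered for 100% of values within 0.01 deposited units. Since the plan allowed for scaled values, CPM was computed from them. The deposited RPKM columns gave levels per length and an alternative test on log2(RPKM + 1). The log2 fold change and adjusted p-value columns the authors deposited were read to check signs alone; their sign by the values is WT minus KO in the adult table.

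Genes reaching 1 CPM in 3 or more libraries of a fit were tested with limma 3.58.1 (trend, robust; R 4.3.3) on log2(CPM + 1), Benjamini-Hochberg adjusted over all tested genes, once per age and once over all 12 libraries for the difference between ages. The method was tested on simulated data. Alternatives were TMM factors, a pseudocount of 0.25 CPM, no filter, at least 5 CPM, RPKM, edgeR 4.0.16 and DESeq2 1.42.0 on recovered reads, no robust option, 1 fit of 4 groups, a replicate block and leaving out each library. Named genes were all members, Ncor1, up to 4 called genes per pathway list and age, and 10 fixed pathway genes. The 3 genes most like each of the 3 members of highest RPKM were named too. Rdh14, Aldh1a3, Cd36, Gata4, Fabp1, Vil1, Alpi, Tagln, Lyve1, Slc10a2 and Fgb were named after their values were seen. Not all genes this rule names are reported here. Members and lists were chosen with earlier results of these data known. Replicate pairs all differed by more than counting noise. Promoters are from RefSeq. Shared windows of the longest transcript of each member were counted in GENCODE M1 protein-coding transcripts, on the sense strand alone.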

Additional observations from a re-analysis of the deposited data

Results flagged for a closer look

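For 2 members the test of the difference in KO effect between the ages passed the threshold. For Lrat the age difference, adults minus neonates, was -0.60 on the log2 scale, with 29.7 ± 2.87 CPM in KO and 67.7 ± 5.09 CPM in WT adults against 178.2 ± 3.46 CPM in KO and 263.9 ± 25.3 CPM in WT neonates (SD, n = 3 each; limma adjusted p = 0.00324). For Bco1 it was -0.996, with 1.68 ± 0.658 CPM in KO and 4.81 ± 0.443 CPM in WT adults against 0.796 ± 0.249 CPM in KO and 0.985 ± 0.0742 CPM in WT neonates (SD, n = 3 each; limma adjusted p = 0.0345). The Lrat difference was not called on deposited RPKM (-0.27 on the log2(RPKM + 1) scale, limma adjusted p = 0.296). The Bco1 difference rests on 4 to 10 reads per neonatal library. It was not called under 11 of 19 alternatives, among them no filter on low values (limma adjusted p = 0.0561), edgeR (adjusted p = 0.201) and 8 of 12 fits without 1 library. Age and table cannot be told apart.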

How the results depend on the processing

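Of the 9 genes, 4 were called in adults and 4 in neonates. With TMM factors, edgeR, DESeq2 or 1 fit of all 4 groups 5 were called in adults, and with at least 5 CPM 3 were, since Bco1 was then not tested; leaving out each library in turn gave 4 throughout. In neonates every alternative gave 4, except that leaving out 1 library gave 3 or 4. The difference between ages was called for 2 genes, for 1 with a pseudocount of 0.25 CPM, for 1 on deposited RPKM, for 3 without the robust option, and for 1 to 3 when each library was left out in turn. The 2 genes were Lrat and Bco1, and with no filter, at least 5 CPM, edgeR or DESeq2 they were Lrat and Rdh7. The cause was not tested. Among 349 values of single genes under alternatives, 321 stayed on their side of the threshold, 16 lost a call and 12 gained one. Of the 167 values of called results 0 changed sign. Of the 182 values of results not called 20 did, all of Rbp2 in neonates, Cyp26b1 in each comparison and the Isx age difference, with values between -0.19 and 0.22. Lrat, Isx and Dhrs3 were called at both ages under every alternative, and Bco1 in adults wherever it was tested.

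Correlations of deviations between same-numbered KO and WT libraries were 0.0616, -0.212 and -0.121 in adults. Each was below the highest correlation with another number (0.0859, 0.229 and 0.145). In neonates they were 0.16, 0.139 and 0.0286, each above the highest with another number (-0.0722, 0.0422 and 0.0243). Whether replicate numbers mark pairs in neonates was thus not settled, and the main fits took no pairing. With the replicate block 4 members were called in adults, 4 in neonates and 3 between ages, and over all genes 2272, 3575 and 792 against 2611, 3009 and 796 without it. Over all genes the adult count was 1119 on deposited RPKM and as low as 1285 without 1 library, and the neonatal count was 1574 with DESeq2. Depth limits Cyp26a1, Stra6 and, in neonates, Bco1, of which no setting without a filter made a call.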
